A study of Mus musculus with 4 samples.

Results

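Genes of the ubiquitin system were examined among the Ago2-bound features of mouse B cell progenitor lines. They were chosen by symbol alone: Rnf, Trim and March RING finger genes, Fbx genes, Klhl genes and cullins, Ube2, Ube3 and Ube4 enzymes, and Usp and Otud deubiquitinases. The pattern found 84 features of 56 genes, out of 2548 features of 1848 genes in the authors' deposited table. Of the 56 genes, 35 had 1 feature and 21 had from 2 to 4. The features of such a gene share its transcript and are numbered here by descending mean.

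The 4 libraries came from fetal liver cells of C57BL/6 embryos at stage E14.5 that were transformed with a virus coding for the Abelson kinase, which both genotypes carry. There were 2 wild-type libraries and 2 with the genotype Bim3'UTRmut/mut, each pair described as biological replicates. Whether a line is 1 clone is not stated. Ago2 binding was measured by PAR-CLIP, in which cells take up 4-thiouridine, ultraviolet light joins RNA to bound protein, and the RNA that comes down with Ago2 is sequenced. A feature is a stretch of RNA with reads in this assay. Its position and length are not in the table, so reads per feature are not a level per length. RNA amounts were not analysed here, and more Ago2 on a transcript cannot be told apart from more of that transcript.

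Ubiquitin is a small protein that marks others for destruction by the proteasome or for a change of place or activity. An activating enzyme (E1) passes it to a conjugating enzyme (E2), and a ligase (E3) brings the E2 to the substrate. RING finger ligases do this directly, HECT ligases take up the ubiquitin first, and cullin ligases are scaffolds that hold interchangeable substrate receptors, such as F-box and Kelch-like proteins. Deubiquitinases remove the mark. Argonaute proteins carry microRNAs, which pair with sites in transcripts and lower their output, so reads at these genes mark transcripts held by Ago2.

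The deposited means could be solved for the whole reads of each library, and the libraries are called Wa and Wb on the wild-type side and Ma and Mb on the mutant side. The sides were set by which pairing gave the signs of the deposited fold changes. Which replicate each one is could not be read from the table. Reads in all listed features together, which are not the full library depth, ran from 14539 in Mb to 160207 in Wa. Normalized reads are reads divided by the authors' size factor of the library, and single-library intervals are exact 95% Poisson intervals that cover counting error only. Mb stood apart from the other libraries. Across the 84 features its log2 normalized reads correlated with those of Wa, Wb and Ma at 0.15, 0.26 and 0.19, against 0.66 to 0.84 among the other 3 libraries, a description over features of shared libraries. Of 15 B cell progenitor markers, 4 were measured (Bach2, Ikzf1, Il7r and Rag1), while Cd79a, Pax5 and Ebf1 had no feature in the table. The 4 summed to 139.4 normalized reads (Wa), 102.2 (Wb), 158.6 (Ma) and 4.42 (Mb). Of 9 stromal markers, 4 were measured (F3, Pdgfra, Thbs1 and Vim), and they summed to between 4.35 and 11.3 normalized reads in Wa, Wb and Ma against 501.9 in Mb. No hepatocyte, erythroid or myeloid marker on the lists used had a feature. The part of these differences in the results below was not tested, and values without Mb, from voom on the other 3 libraries, are given beside the main results that rest on it.

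None of the 84 features passed the test for a difference between mutant and wild type after correction. Klhl14 had the smallest adjusted p, 0.531, when the p-values in the authors' deposited table were adjusted over all features by Benjamini and Hochberg's method. At an adjusted p of 0.05 the table held 0 of 2548 features (0.0%), and 0 members passed in a second test, voom of limma, run on recovered reads. At an unadjusted p under 0.05, voom called 1 member higher, feature 3 of Usp31 (2.94% of all features), and 2 lower, Klhl14 and Fbxo21 (0.157%). By the deposited p, 3 member features were higher in the mutant at an unadjusted p under 0.05, where 7.57% of all features were, and 3 were lower, where 0.903% were. The 3 higher features were both of March8 and that of Klhl22, and the 3 lower ones were Klhl14, Fbxo21 and feature 2 of Trim33. On the deposited log2 scale 36 of the 84 lay above 0 and 48 below, and their median was -0.18, against -0.07 over all features. By voom the median was 0.21 without Mb and -0.39 without Ma, against 0.07 and 0.08 over all features. It was 0.01 without Wa and -0.38 without Wb, against 0.15 and -0.02, so its sign depended on which library was left out.

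The members with the most reads were near the wild-type level in Ma and low in Mb. Rnf44, a RING finger gene, had the highest mean of the members through its feature 1. That feature held 244.0 normalized reads (Wa), 141.9 (Wb), 254.1 (Ma) and 42.0 (Mb). For this feature the authors' deposited table gives a log2 value of -0.34 (standard error 0.93). Ma was thus as high as Wa, and Mb was below every other library.

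In Klhl28, of the Kelch-like family, 3 libraries were close together. Its feature 1 held 207.1 normalized reads (Wa), 224.8 (Wb) and 207.2 (Ma), but Mb only 15.5 (interval 6.22 to 31.9). The deposited log2 fold change of -0.82 (standard error 1.03) averages a mutant-side library at the wild-type level with one far below it. Ube2w, an E2 that attaches ubiquitin to the amino end of proteins, gave a like picture at its feature 1. Reads there were 157.6 (Wa), 175.9 (Wb), 174.8 (Ma) and 31.0 (Mb), after normalization. Trim65, a ligase of the RNA sensor MDA5, held 150.3 normalized reads (Wa), 83.8 (Wb), 166.7 (Ma) and 11.1 (Mb). Here the intervals of Wa and Wb did not overlap either.

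**Figure D1:**
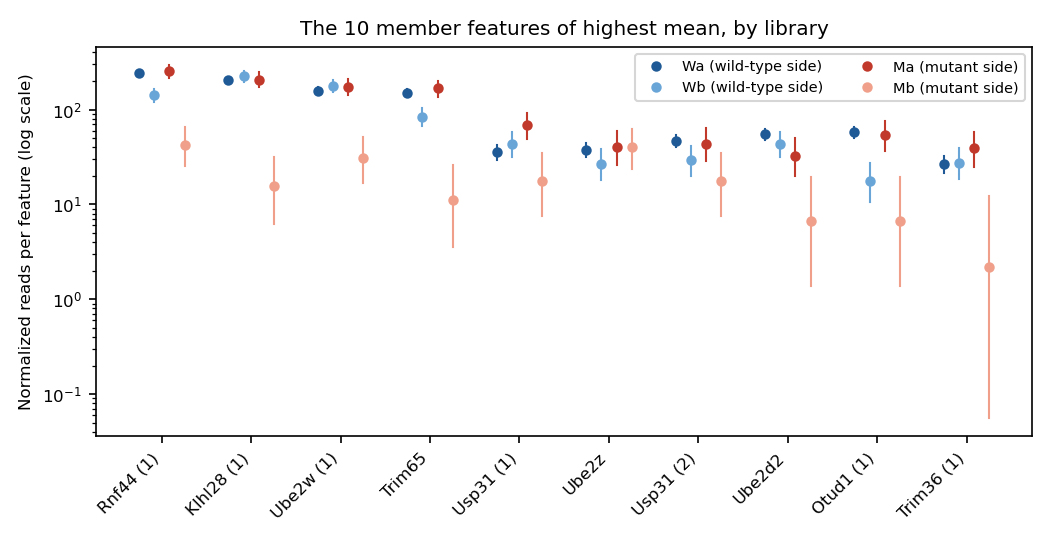
The 10 member features of highest mean, with normalized reads per feature on a log axis, 1 point per library and bars for exact 95% Poisson intervals. Mb, the pale red point, is the lowest of the 4 libraries in 9 of the 10, and Ube2z is the exception.

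The other features among the 10 of highest mean belonged to Usp31 (features 1 and 2), Ube2z, Ube2d2, Otud1 and Trim36. Ube2z, the E2 that is charged by the activating enzyme Uba6, was the exception to the pattern. It held 37.2 normalized reads (Wa), 26.7 (Wb), 40.5 (Ma) and 39.8 (Mb), and both mutant-side libraries lay above both wild-type ones. Its log2 value there, by the authors' deposited table, was 0.30 (standard error 0.68), and the 95% interval of -1.04 to 1.64 includes 0. Ube2d2, an E2 that serves many RING ligases, was lower in both mutant-side libraries. Its normalized reads were 54.9 (Wa), 43.3 (Wb), 32.4 (Ma) and 6.63 (Mb). The authors' deposited table has -1.18 on the log2 scale (standard error 0.88, unadjusted p = 0.18). Otud1, an OTU deubiquitinase, held 57.9 (Wa) but 17.5 (Wb) at its feature 1, and 53.4 (Ma) against 6.63 (Mb). Its genotypes overlapped. Trim36 had 26.6, 27.6 and 38.8 normalized reads in Wa, Wb and Ma and 2.21 in Mb at its feature 1. Feature 1 of Usp31, a deubiquitinase, had 35.3, 43.3, 68.0 and 17.7 in the order Wa, Wb, Ma, Mb, and its feature 2 had 46.7, 29.5, 43.7 and 17.7.

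Mb was the lowest library in 9 of these 10 features, 90.0%, and in 69.6% of all 319 features with a mean at least as high. In Mb the 10 together made up 0.592% of the library's reads (exact 95% binomial interval 0.473 to 0.73), against 2.34% (Wa), 2.28% (Wb) and 2.71% (Ma). Over all 84 features the share was 3.72% (Wa), 3.61% (Wb), 3.95% (Ma) and 2.50% (Mb). The 74 other members differed in the opposite direction, with 1.91% of the reads of Mb and from 1.24% to 1.38% of those of the other libraries. The lower share of highly read features in Mb was not particular to the members: all 319 features of that level held 43.8% of the reads of Mb, against 67.7% to 72.8% in the other libraries. Without Mb, the log2 values by voom were 0.42 for Rnf44, -0.05 for Klhl28, 0.08 for Ube2w and 0.53 for Trim65, each at its feature of highest mean, and -0.58 for Ube2d2.

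Klhl14 and Fbxo21 were low in both mutant-side libraries. Klhl14, a Kelch-like gene known from B cells and B cell lymphoma, held 115 reads (Wa), 27 (Wb), 2 (Ma) and 0 (Mb). This was 31.3 (interval 25.8 to 37.5) and 24.9 (16.4 to 36.2) normalized reads on the wild-type side against 3.24 (0.392 to 11.7) in Ma and 0 in Mb, where a count of 0 allows up to 3 counts, or 6.63. The intervals of the wild-type libraries overlapped, and both mutant-side limits lay below them. Mutant over wild type, the authors' deposited table lists a log2 value of -3.32 (standard error 1.16, unadjusted p = 0.0042, adjusted p = 0.531 over all features). Without Mb it was -2.82 by voom, and without Ma -4.70, so it was below 0 with either library.

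Fbxo21, an F-box gene whose product is a substrate receptor of cullin ligases, held 103 reads (Wa), 28 (Wb), 4 (Ma) and 1 (Mb). Normalized, these were 28.0 and 25.8 on the wild-type side and on the mutant side 6.47 (interval 1.76 to 16.6) for Ma and 2.21 (0.056 to 12.3) for Mb. The genotypes did not overlap in these values. On the log2 scale the authors' deposited table gives -2.29 (standard error 0.95, unadjusted p = 0.0164, adjusted p = 0.561). By voom it was -1.91 without Mb and -3.04 without Ma, again below 0 on both. Groups that do not overlap were common in the table: both mutant-side libraries lay below both wild-type ones in 20.1% of all features and in 15 of the 84.

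The remaining low features rested on fewer reads. Feature 2 of Trim33, a ligase and cofactor of SMAD signalling, held 9 reads (Wa), 16 (Wb) and none on the mutant side. The normalized values of 2.45 (Wa) and 14.7 (Wb) had intervals that did not overlap, and the 3 counts that a 0 allows are 4.86 normalized reads (Ma) and 6.63 (Mb). Wa lies under both limits, so Wb alone stands clear of the mutant side. The authors' deposited table has -2.92 for it (log2, standard error 1.48, unadjusted p = 0.0477). Feature 1 of Fbxw7, the receptor that sends cyclin E, MYC and Notch for degradation, had 11.1 normalized reads (Wa), 3.68 (Wb), 0 (Ma) and 2.21 (Mb). For this feature the authors' deposited table gives a log2 value of -2.00 (standard error 1.39, unadjusted p = 0.15). Feature 2 of Rnf4, a ligase that recognises SUMO-modified proteins, had 10.9, 19.3, 8.09 and 2.21 normalized reads in Wa, Wb, Ma and Mb and a deposited log2 fold change of -1.28 (standard error 1.04).

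**Figure D2:**
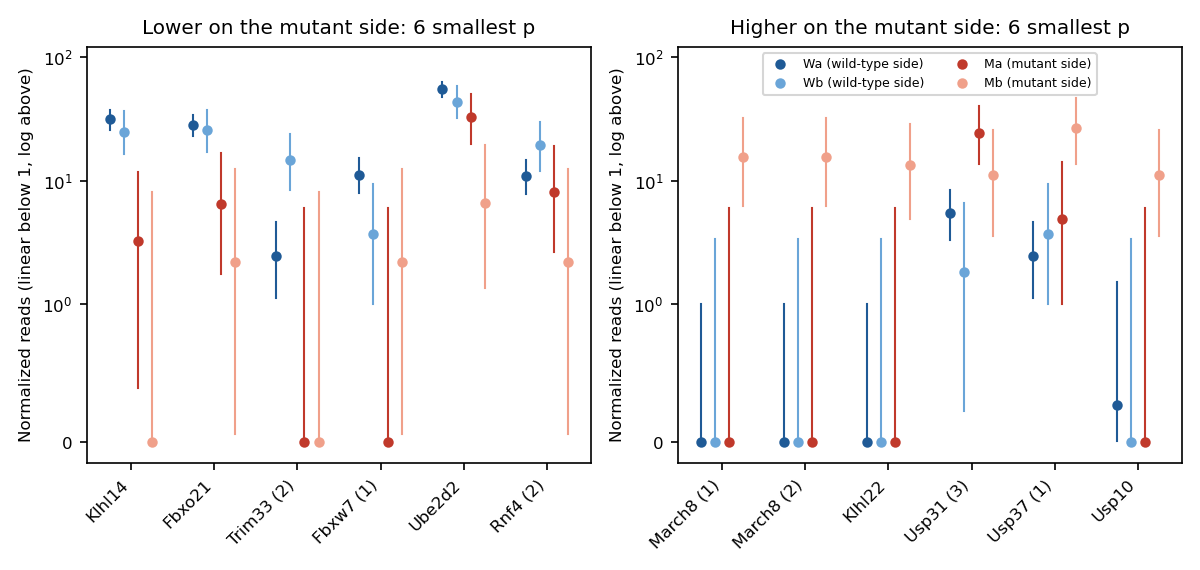
Normalized reads in each library for the 6 members of smallest p on either side of 0, on an axis that is linear below 1 and logarithmic above, with exact 95% Poisson intervals. Klhl14 and Fbxo21 are low in Ma and Mb alike, whereas March8, Klhl22 and Usp10 are high in Mb alone.

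On the higher side, the smallest p belonged to features read in Mb alone or nearly so. March8, a membrane-bound ligase that takes receptors off the cell surface, is listed in 2 rows with the same values, and each held 7 reads in Mb and 0 in Wa, Wb and Ma. A total of 15 rows, of 14 genes, hold exactly 7 reads in Mb alone, so equal values do not show whether the March8 rows are 1 feature or 2. The 7 reads are 15.5 normalized reads (interval 6.22 to 31.9). Klhl22, an adaptor of the cullin Cul3, held 6 reads in Mb and 0 elsewhere, or 13.3 normalized reads. Their deposited log2 fold changes were 2.89 (standard error 1.38, unadjusted p = 0.0361) for March8 and 2.78 (standard error 1.39, unadjusted p = 0.0458) for Klhl22. These are fitted values against libraries at 0 and give no bound on a fold. Without Mb neither gene has a read.

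Usp10, a deubiquitinase of p53, held 1 read (Wa), 0 (Wb), 0 (Ma) and 5 (Mb). The authors' deposited table has 2.60 for it (log2, standard error 1.50). By voom without Mb the value for Usp10 was 0.93, but its only read there is in Wa. With 0 reads in Ma, that value does not show a rise on the mutant side. Feature 1 of Usp37, a deubiquitinase of cyclin A, had 2.45 normalized reads (Wa), 3.68 (Wb), 4.86 (Ma) and 26.5 (Mb). Both mutant-side libraries were the higher ones, but the interval of Ma, 1.00 to 14.2, spans both wild-type values, and the log2 value was 0.85 by voom without Mb. Feature 3 of Usp31 differed from these in being highest in Ma. It held 5.43 normalized reads (Wa), 1.84 (Wb), 24.3 (Ma) and 11.1 (Mb), and the interval of Ma began at 13.6. In the authors' deposited table the log2 value is 1.93 (standard error 1.01, unadjusted p = 0.0573, adjusted p = 0.563). By voom it was 2.22 with all libraries and 2.71 without Mb (unadjusted p = 0.0247, adjusted p = 0.983). Both mutant-side libraries lay above both wild-type ones in 13 of the 84 features, where 13.1% of all features did so.

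Among the 84 member features, 3 were read in Mb alone and 2 in Wa alone, against 131 and 61 of all 2548 features. The 2 read in Wa were Fbxo3, with 13 reads, and feature 2 of Trim36, with 5.

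RING finger genes of the Rnf and March names were the second largest family, with 20 features of 13 genes. Of these, 9 lay above 0 and 11 below, the deposited median being -0.04 (log2), which was 0.14 by voom, -0.04 with TMM factors, 0.19 without Mb, 0.06 without Wb, -0.23 without Ma and 0.47 without Wa. The genotypes overlapped in the larger ones besides Rnf44. March5, a ligase of the mitochondrial outer membrane, held 28.0 normalized reads (Wa), 15.7 (Wb), 16.2 (Ma) and 15.5 (Mb). Rnf26 held 22.0 (Wa), 12.0 (Wb), 17.8 (Ma) and 15.5 (Mb), and feature 1 of Rnf11 19.3, 13.8, 17.8 and 19.9. In these 3 genes Mb lay within or close to the range of the other libraries. Rnf2, the Polycomb ligase that modifies histone H2A, had 4.35, 3.68, 8.09 and 2.21 normalized reads in Wa, Wb, Ma and Mb.

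Trim genes, a family of RING ligases with a shared domain order, had 8 features of 6 genes. In the deposited values all 8 lay below 0 (median -0.38), as did 1338 of all 2548 features, and 1 was called lower at an unadjusted p under 0.05 (0.903% of all features). By voom and with TMM factors 7 of the 8 lay below 0, and without Mb 5 of the 8 did, with a median of -0.21, against -1.73 without Ma. Summed over the family, normalized reads were 206.8 (Wa), 141.9 (Wb), 218.5 (Ma) and 22.1 (Mb). Of the 8 features, 4 had no read in Mb, where 25.2% of all features had none. Trim65 made up 166.7 of the sum in Ma, so the sum mostly follows that gene. Set against the wild-type mean on the log2 scale, the median of the 8 features was -0.88 for Ma and -3.35 for Mb. In Ma 3 of the 8 had no read, where 23.7% of all features had none. Trim30d held 0.815, 10.1, 1.62 and 0 in the order Wa, Wb, Ma, Mb, so most of its reads came from Wb, and Trim37 held 5.98, 3.68, 3.24 and 0 in Wa, Wb, Ma and Mb.

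F-box genes had the lowest deposited median of the families, -0.80 over 10 features of 9 genes, 7 of them below 0, but by voom and with TMM factors the Trim genes were lower (-1.01 and -1.21). The F-box median was -0.63 by voom, -0.86 with TMM factors, -0.45 without Mb and -1.05 without Ma. Both mutant-side libraries lay below both wild-type ones in 5 of the 10, where 20.1% of all features did so. The 5 were Fbxo21, feature 1 of Fbxw7, Fbxo8, Fbxo25 and Fbxl4. Fbxo8 held 11.7 normalized reads (Wa), 10.1 (Wb), 6.47 (Ma) and 4.42 (Mb). Fbxo25 held 6.52, 11.1, 3.24 and 4.42 in the same order, and Fbxl4 held 8 reads (Wa), 2 (Wb), 1 (Ma) and 0 (Mb). Summed over the family the values were 89.1, 78.3, 43.7 and 46.4 in Wa, Wb, Ma and Mb, and Fbxo21 alone made up 28.0, 25.8, 6.47 and 2.21 of them. Both mutant-side libraries lay above both wild-type ones in 2 of the 10, Fbxo28 and Fbxo34, where 13.1% of all features did so. These held 2 reads each in Ma and 1 each in Mb. Fbxl14, a receptor for Snail family proteins, was highest in Mb, with 12.2, 24.0, 12.9 and 28.7 normalized reads in Wa, Wb, Ma and Mb.

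**Figure D3:**
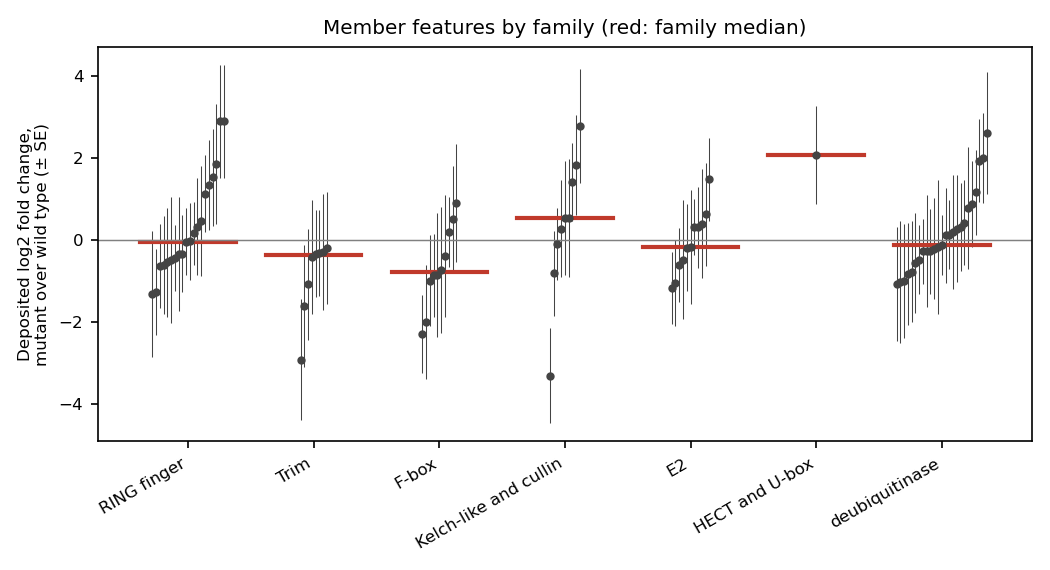
Deposited log2 ratio of mutant to wild type for each of the 84 member features, with standard errors derived from the deposited p, grouped by family, and a red line at each family's median. All 8 Trim features lie below 0 and the F-box median is -0.80, while most error bars cross 0.

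Kelch-like genes and cullins, the scaffold and Cul3 adaptor genes, had 9 features of 7 genes with a median of 0.53, 6 of them above 0. The median was 0.46 by voom, 0.34 with TMM factors, 0.33 without Mb, -0.08 without Wb, 0.83 without Ma and 1.48 without Wa. Klhl14 had the lowest deposited log2 fold change of the 84 features and of the whole table. Klhl2 and Klhl21 lay on the opposite side: Klhl2 held 4.35, 4.61, 11.3 and 15.5 normalized reads in Wa, Wb, Ma and Mb, with a deposited log2 fold change of 1.40 (standard error 0.95). Klhl21, which acts in cell division, held 1.09, 1.84, 3.24 and 11.1, and neither passed the threshold. Feature 1 of Cul4b, a cullin scaffold, had 16.3, 11.1, 16.2 and 8.84.

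Conjugating enzymes had 11 features of 7 genes, 5 above 0 and 6 below, with a median of -0.17. It was -0.19 by voom, -0.57 with TMM factors, 0.34 without Mb, -0.55 without Wb, -0.27 without Ma and -0.37 without Wa. Feature 1 of Ube2j1, an E2 of the endoplasmic reticulum, held 14, 10, 5 and 15 reads in Wa, Wb, Ma and Mb, the last of which is 33.2 normalized reads, with a deposited log2 fold change of 1.47 (standard error 1.00) that was 0.60 without Mb. Feature 1 of Ube2d3, a close relative of Ube2d2, held 18.2, 10.1, 9.71 and 2.21. For Ube2a, the RAD6 homologue of DNA damage tolerance, feature 1 had 10.9, 9.21, 14.6 and 2.21. The only HECT or U-box member was Ube3b, a HECT ligase, with 2.72, 4.61, 1.62 and 42.0 normalized reads. On the log2 scale the authors' deposited table gives 2.06 (standard error 1.19) and its value without Mb, by voom, was -0.59.

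Deubiquitinases were the largest family, with 25 features of 13 genes. They were split 12 above and 13 below 0, with a median of -0.13, and 0 had an unadjusted p under 0.05. The median was -0.11 by voom, -0.33 with TMM factors and -0.40 without Ma. Without Mb it was 0.33, and 19 of the 25 lay above 0. In that fit 51 of 81 members lay above 0, and the median over all features was 0.07. Usp14, which works on the proteasome itself, held 28.0 normalized reads (Wa), 20.3 (Wb), 24.3 (Ma) and 8.84 (Mb). Feature 1 of Otud7b, which trims K11-linked chains, was at a like level in the 4 libraries, with 22.3, 26.7, 24.3 and 19.9. For this feature the authors' deposited table gives a log2 value of -0.13 (standard error 0.72, 95% interval -1.54 to 1.29), an interval too wide to show that the genotypes are alike. Usp3, a deubiquitinase of histone H2A, held 59, 9 and 9 reads in Wa, Wb and Ma and 0 in Mb.

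The 21 genes with several features allowed a comparison within a gene. In 9 of them the features lay on both sides of 0. At Rnf44 feature 1 took 92.0% of the gene's reads in Wa, 90.1% (Wb), 92.9% (Ma) and 19 of 20 reads (Mb), so the division was alike. At Ube2w it took 96.8% (Wa), 97.9% (Wb) and 108 of 108 reads (Ma), but 70.0% (exact 95% binomial interval 45.7 to 88.1) in Mb.

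At Usp31, feature 3 took a larger share on the mutant side. In the wild type it took 6.21% of the 322 reads of Wa (interval 3.83 to 9.43) and 2.47% of the 81 of Wb (0.30 to 8.64). On the mutant side it took 17.9% of 84 reads in Ma (10.3 to 27.7) and 23.8% of 21 in Mb (8.22 to 47.2). The interval of Ma lay above both wild-type intervals, and that of Mb overlapped them. Features 1 and 2 had deposited log2 fold changes of 0.13 (standard error 0.85) and -0.28 (standard error 0.79), against 1.93 at feature 3.

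Rnf4 and Trim33 set Wb apart. At Rnf4, feature 1 took 75.2% of 161 reads (Wa) and 72.2% of 18 (Ma), but none of the 21 in Wb (interval up to 16.1%). At Trim33 it took 85.9% of 64 reads (Wa), all 5 (Ma) and both in Mb, but none of the 16 in Wb (interval up to 20.6%). In both genes the wild-type libraries thus were divided differently beyond counting error, and Ma was like Wa.

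Feature 1 of Otud7b, which has 4, took 63.6%, 72.5% and 78.9% of the gene's reads in Wa, Wb and Ma, and 37.5% of 24 in Mb (interval 18.8 to 59.4). Its features 2 and 3 had 7 reads each in Mb, and feature 3 had none in Ma. Features 2 and 3 of Otud1 held 10 reads each in Wb and 14 and 5 in Ma, but none in Mb, where the gene had 3 reads in all. Feature 1 of Rnf6, a RING ligase, had 10 reads (Wa), 21 (Wb), 0 (Ma) and 6 (Mb), whereas its feature 2 had 7, 2, 2 and 5. Their deposited log2 values were -0.54 (standard error 1.33) and 1.52 (standard error 1.19).

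**Figure D4:**
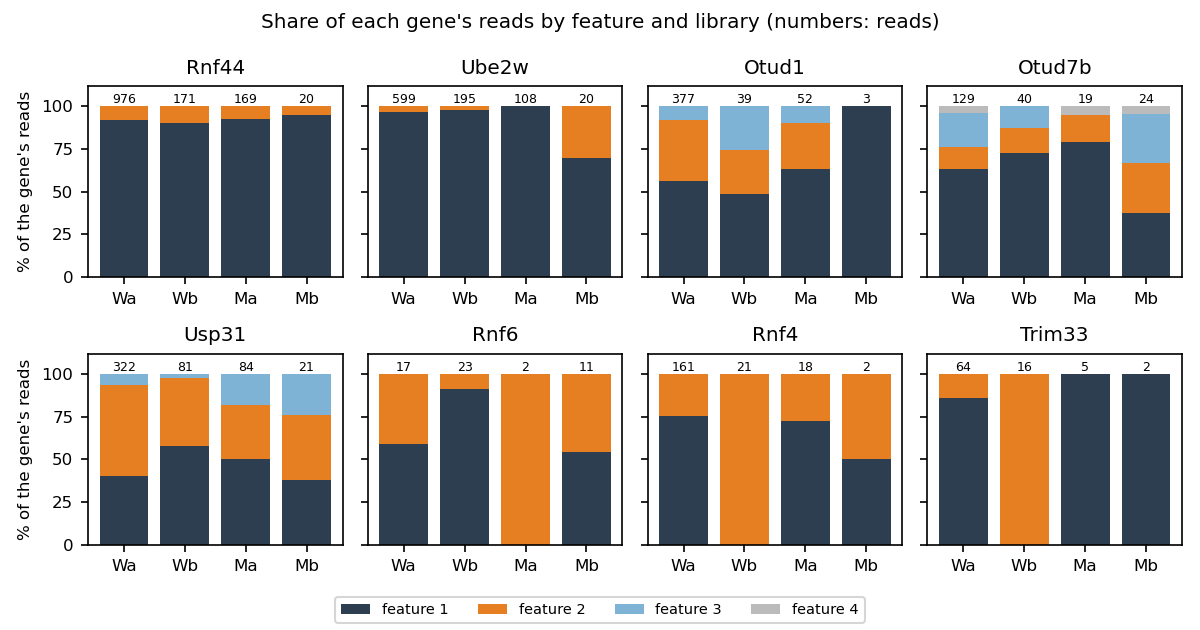
Share of a gene's reads at each of its features, by library, for 8 genes with several features, in percent, with the gene's reads in that library above each bar. Rnf44 is divided alike in the 4 libraries, feature 1 of Otud7b has its smallest share in Mb, Rnf4 and Trim33 differ in Wb, and feature 3 of Usp31 is larger in Ma and Mb.

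The mutant-side libraries were also set against the wild-type mean one by one, as log2 ratios with 0.5 added to normalized reads. Of the 84 features, 23 lay below the wild-type mean in both libraries, where 33.5% of all features did, and 16 lay above it in both, where 18.4% did. In 28 features Ma lay above and Mb below, 33.3% against 21.0% of all features, and in 14 the reverse. The median ratio was 0.04 in Ma and -0.72 in Mb, against -0.15 and -0.29 over all features. Klhl14 had -2.93 in Ma and -5.84 in Mb, and Fbxo21 -1.97 and -3.34. With Mb alone set against the wild-type side, voom called 9 members at an adjusted p of 0.05, 7 higher and 2 lower, where 14.0% of all features were called. The 2 lower ones were feature 1 of Klhl28 and Trim65. With Ma alone it called 0, and 1 member on each side had an unadjusted p under 0.05, Klhl14 lower (0.165% of all features) and feature 3 of Usp31 higher (1.37%).

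**Figure D5:**
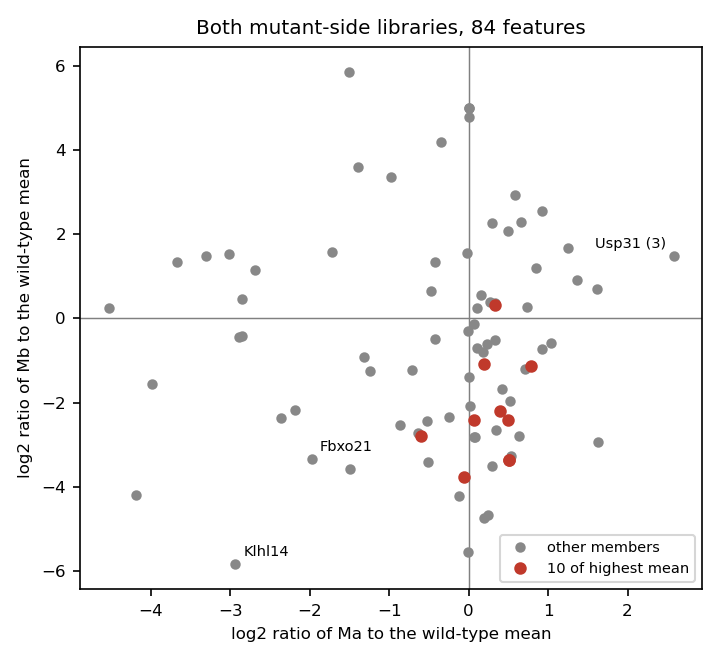
The log2 ratio of Ma (horizontal) and Mb (vertical) to the wild-type mean for the 84 member features, with 0.5 added to normalized reads and the 10 features of highest mean in red. Of the red points 9 lie below 0 on the vertical axis, and Klhl14 and Fbxo21 lie below 0 on both axes.

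Of 134 other genes of the ubiquitin pathway, 34 were measured, in 49 features. These split 27 above and 22 below 0 in the deposited log2 fold change, with a median of 0.21, and 0 passed an adjusted p of 0.05. At an unadjusted p under 0.05, 2 were higher, where 7.57% of all features were, and 0 were lower. Feature 1 of Rc3h2, a Roquin family ligase that also binds RNA, held 37 reads (Mb) against 4 (Wa), 2 (Wb) and 1 (Ma). The authors' deposited table has 3.74 for it (log2, standard error 1.25, unadjusted p = 0.00271, adjusted p = 0.531). Smurf1, a HECT ligase of SMAD signalling, held 8 reads, all in Mb. Feature 1 of Traf3, a RING ligase that restrains B cell survival signals, held only 2 reads (Wa), 1 (Wb), 5 (Ma) and 1 (Mb). Normalized, these were 0.544 and 0.921 in the wild-type libraries against 8.09 (Ma) and 2.21 (Mb), the last from 1 read. In the authors' deposited table the log2 value is 2.16 (standard error 1.32, unadjusted p = 0.102). Feature 2 of Traf3 lay on the other side of 0, at -0.52 (standard error 1.36), with 9, 5, 0 and 2 reads in Wa, Wb, Ma and Mb. Traf6, a ligase of receptor signalling, held 6, 2, 3 and 5 reads in the same order. Normalized, its mutant-side libraries were at 4.86 and 11.1 against 1.63 and 1.84, with a log2 value of 1.78 (standard error 1.16).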

How the data were processed

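The data were 1 table of the authors' own comparison of 4 Ago2 PAR-CLIP libraries. Per the file headers, it gives for each feature a mean normalized signal over the libraries, a log2 fold change and an unadjusted p-value, computed by the authors with DESeq2. Per the submitters' processing notes, CASAVA 1.8.2, BWA 0.7.12-r1039 and the builds mm9 and NCBIM37 were used. Not given in the sources used here are their settings, the feature definition and coordinates, and any removal of PCR copies. Per the labels' protocols, cells had 500 µM 4-thiouridine for 5 hours and RNase T1 at 10 U/µl for 10 minutes. The direction, mutant over wild type, comes from the table's name.

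Benjamini-Hochberg adjustment ran over all 2548 features. A standard error was derived from each log2 fold change and its p, taking the p as that of a Wald test. The deposited means were solved for whole reads per library, and a search found exactly 1 solution for each of 2548 features, with a largest misfit of 4.97e-13. Of 2353 means shifted by up to 1e-06, 0 had a solution. Pairing the libraries by genotype gave the sign of the deposited fold change in 98.8% of features, and the next best pairing in 67.6%. Recovered reads were tested with voom of limma 3.58.1 in R 4.3.3. The fit was checked on simulated data in which all libraries varied alike. That check does not cover a library that stands apart as Mb does. With TMM factors the median over all features moved by -0.20 (log2). With 2 libraries on each side, p-values rest on few samples. Without 1 library, the lone library of a side is assumed to vary like the others.

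Members, families and the wider gene list were chosen with earlier results of these data known. The rule for naming features took the 6 members of smallest p on each side, the 10 of highest mean, the highest of each family, the largest features read in 1 library and genes with several features, 59 features in all, of which not every one of the last kind is printed; further members, outside that rule and chosen after their values were seen, were named to describe families. Symbols are as listed; RefSeq (GRCm38.p6) gives another for 3 member genes, and its symbols would add 6 features of 2 genes. No target sequence was used, since no file used here holds one. Some members and other genes are not reported here by name.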

Additional observations from a re-analysis of the deposited data

How the results depend on the processing

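The count of 0 members at an adjusted p of 0.05 was 0 in every alternative run except the voom fit without Ma, over the range 0 to 9 when 1 library was left out. At an unadjusted p under 0.05 the 3 higher members became 0 among features at or above the median mean, 0 at p under 0.01, 7 at p under 0.10, 1 by voom and 0 by voom with TMM factors, and from 1 to 12 without 1 library. The 3 lower members became 1 at p under 0.01, and from 0 to 6 without 1 library. The median of -0.18 was -0.32 with TMM factors and ran from -0.39 to 0.21 without 1 library, above 0 without Wa (0.01) and without Mb. With members at 0 on 1 side set to their bound against 3 counts per library, it was -0.12. Of the 59 features named by rule, 9 had the other sign by voom, 8 with TMM factors, and 25 of 56 without Mb. Adding 6 features by current symbol, chosen after seeing the data, gave a median of -0.19. No paired analysis was possible because the table does not show which library carries which replicate number. Depth limits the low features: 3 counts, which a 0 allows, are 4.86 normalized reads in Ma and 6.63 in Mb. The causes of these differences were not tested.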
